A study of Mus musculus with 4 samples.

Results

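Antisense noncoding genes are genes whose RNA is copied from the strand opposite a protein-coding gene. Such RNAs are made by RNA polymerase II, many from a start near or inside the coding gene, and most stay at low levels because the nuclear exosome and its cofactors degrade them. Well studied ones act on the gene they overlap in cis, and Kcnq1ot1, which silences its neighbours on the paternal chromosome, is the textbook case. In the RNA of mouse blood phagocytes, 193 antisense genes passed a count rule, out of 2062 genes of that annotated type and 42462 annotated genes in all. They were selected on measured values: the GENCODE M21 type had to be antisense, and the expected count, RSEM's estimate of the reads from a gene, had to reach 20 in both libraries of at least 1 cell type. Gas5, Tsix and symbols starting with Snhg were left out. Of the 193, 93 reached the count in both cell types, 40 in monocytes only and 60 in neutrophils only. At the edge of the rule, Gm16083 was taken in with 0 and 0 counts in monocytes and 20 and 33 in neutrophils, and Gm16299 was left out with 19 and 27 in monocytes and 28 and 9 in neutrophils.

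The libraries were 2 of monocytes (MON) and 2 of neutrophils (NEU), made from total RNA of peripheral blood of adult C57BL6 mice with no genetic change or treatment named. Monocytes were sorted as Gr-1+Mac-1+ cells from the mononuclear layer of a Ficoll gradient, while a supplementary table of the study gives them as Ly6g- and CD11b+. Neutrophils were taken from the pellet after red cell lysis without a sort. The labels do not tie the libraries to animals, and the study allows replicates to be either other mice or parts of 1 sorted pool, so p-values measure only the spread between these samples, which may be technical. Expected counts of genes summed to between 25538433 and 26076261 in monocytes and between 20549572 and 21634828 in neutrophils. All 10 monocyte markers were higher in monocytes. Of 12 neutrophil markers, 11 were higher in neutrophils and 1 was higher in monocytes. Genes of other cells also differed: 10 markers of natural killer cells summed to 2685 and 2692 CPM, counts scaled to a common library size, in monocytes and 32.2 and 33.1 in neutrophils, and 8 markers of B cells to 308 and 400 CPM in monocytes and 2563 and 2468 in neutrophils. None of the defining genes of either list was at 0 in both libraries of a cell type, and the part of these cells in the antisense RNA was not tested. In bulk RNA, fewer cells of a type and less RNA per cell cannot be told apart. The monocyte pair was the noisier one, with a biological coefficient of variation of 46.2% for monocytes and 14.7% for neutrophils. The spread was also seen over all genes: among tested genes with a mean of 10 to 100 counts, the libraries differed by over 3-fold or held a 0 in 35.6% in monocytes and 7.29% in neutrophils. Of the 193 antisense genes, at any level, 37 did so in monocytes and 6 in neutrophils.

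The most abundant gene of the antisense type carries a microRNA with a known myeloid role, which is why its sequences are shown. This gene has no annotated protein-coding gene on the opposite strand. F630028O10Rik (chromosome X, 96239926 to 96243636, plus strand, mm10) spans Mir223 on the same strand, and miR-223 is known for restraining granulocyte production and activation. The hairpin itself was listed at 0 counts in all 4 libraries, as was Mir7649, a microRNA gene within Gm15987. The counts are of genes and do not give the level of the mature microRNA. The mature forms are given 5′ to 3′ from RefSeq (GRCm38.p6), with the seed, bases 2 to 8, in capitals.
mmu-miR-223-5p: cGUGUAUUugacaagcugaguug
mmu-miR-223-3p: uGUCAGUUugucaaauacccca
The host gene had 8246 and 9444 counts in monocytes, against 10408 and 9066 in neutrophils, so the raw counts overlapped. Scaled by library size, its mean CPM was 343 ± 39.4 over the monocyte libraries and 462 ± 24.4 over the neutrophil libraries (SD, n = 2 each), and the groups no longer overlapped. The log2 fold change, monocyte over neutrophil here and throughout, was -0.43 ± 0.11 (SE, edgeR adjusted p = 0.0236). The call ended without neutrophil replicate 1, where the value was -0.39, and with limma on log2(TPM + 1) and log2(TPM + 0.1), at -0.40 and -0.41.

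Promoter windows, from 250 bases before to 50 after the RefSeq start, were matched by symbol for 85 of the 193 genes (GRCm38.p6, of 27025 promoters in the table). Shown are those of F630028O10Rik (chromosome X, 96239676 to 96239975, plus strand), of Il1bos (chromosome 2, 129369652 to 129369951, plus strand), which moved with the cytokine gene Il1b, and of A330009N23Rik (chromosome 15, 101225137 to 101225436, minus strand), which moved with Grasp. Capitals mark 2 motifs searched on both strands, GAGGAAG, a sequence of the kind bound by the myeloid factor PU.1, and AACCACA, of the kind bound by RUNX factors.
F630028O10Rik: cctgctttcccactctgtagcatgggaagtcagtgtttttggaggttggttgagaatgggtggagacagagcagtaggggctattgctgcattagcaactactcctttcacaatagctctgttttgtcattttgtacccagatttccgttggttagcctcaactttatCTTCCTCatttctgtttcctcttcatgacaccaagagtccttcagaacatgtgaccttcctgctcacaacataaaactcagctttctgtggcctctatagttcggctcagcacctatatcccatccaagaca
Il1bos: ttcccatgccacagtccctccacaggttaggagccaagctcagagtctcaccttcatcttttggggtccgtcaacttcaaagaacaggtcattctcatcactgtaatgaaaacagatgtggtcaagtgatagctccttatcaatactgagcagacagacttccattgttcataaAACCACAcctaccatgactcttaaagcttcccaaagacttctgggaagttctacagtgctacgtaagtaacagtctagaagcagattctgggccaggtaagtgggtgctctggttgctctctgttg
A330009N23Rik: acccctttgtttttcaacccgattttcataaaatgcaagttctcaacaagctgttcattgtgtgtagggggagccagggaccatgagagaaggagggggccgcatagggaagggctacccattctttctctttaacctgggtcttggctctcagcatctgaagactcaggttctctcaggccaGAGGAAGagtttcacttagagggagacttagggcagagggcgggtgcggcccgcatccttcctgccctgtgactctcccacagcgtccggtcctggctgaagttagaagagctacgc
In F630028O10Rik the GAGGAAG match lay on the opposite strand, and in the other windows the matches lay on the strand given. The window of Il1bos includes 49 coding bases of Il1b. GAGGAAG was found in 17 of the 85 windows (20%) and in 13.5% of all promoters. AACCACA was in 7 of the 85 (8.24%) and 5.37% of all. Each window shown holds a marked match, unlike most of the 85. CCGGAAGT, of the kind bound by ETS factors, was in 5 windows (5.88%) and 4.0% of all promoters. TATAAA, the TATA box, was in 6 windows (7.06%) and 14.2% of all. The 4 motifs do not contain one another. A match describes letters and not a bound site.

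The levels of the antisense genes were low. The median level over the 193 was 0.305 TPM, a share of transcripts corrected for length, in monocytes and 0.515 TPM in neutrophils. A mean of 1 TPM was reached by 35 of them in monocytes and 56 in neutrophils. The 193 took 0.131% and 0.146% of gene counts in monocytes, against 0.202% and 0.192% in neutrophils. F630028O10Rik led in both cell types with 26.98 and 28.04 TPM in monocytes and 39.41 and 34.02 TPM in neutrophils. Tug1, a conserved noncoding RNA that starts head to head with the chromatin gene Morc2a, had 11.77 and 11.66 TPM in monocytes and 12.84 and 11.79 TPM in neutrophils. Its fold change was -0.03 ± 0.11, which was not called (edgeR adjusted p = 0.857). Apart from the first place, the order differed between the cell types. Gm26740, inside the annotated span of Raet1e, a ligand gene of the natural killer receptor NKG2D, had 3.67 and 3.82 TPM in monocytes and 20.06 and 17.24 TPM in neutrophils, where it was second.
It had 557 and 632 counts in monocytes and 2635 and 2293 in neutrophils, without overlap, and a fold change of -2.34 ± 0.13 (edgeR adjusted p = 0.000138). Raet1e itself had 0 and 29 counts in monocytes and 1 and 0 in neutrophils. Gm16120 was among the 5 highest only in the monocyte ranking, with 6.82 and 9.69 TPM in monocytes and 0.1 and 0.08 TPM in neutrophils. B930036N10Rik, which starts opposite the mRNA export gene Alyref2, had 2.53 and 12.74 TPM in monocytes and 1.64 and 1.96 TPM in neutrophils. Its place among the 5 highest in monocytes rested on monocyte replicate 2, and its fold change of 1.23 ± 0.45 was not called (edgeR adjusted p = 0.0751). Without monocyte replicate 1 its value was 1.75 and without neutrophil replicate 2 it was 1.40, and in both fits it was called. With all 4 libraries it was also called by DESeq2 (1.24), with no filter on low counts (1.22) and with a filter at 10 CPM in 2 libraries (1.22). 1600010M07Rik, whose span contains the importin gene Ipo7, had 9.55 and 6.04 TPM in monocytes and 9.31 and 8.36 TPM in neutrophils and was called only without monocyte replicate 1, at -0.65.

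An opposite-strand protein-coding gene was annotated for 175 of the 193, and 18 had none. In 28 cases there was more than 1, and the one with the longest overlap was taken as the partner. The 64 antisense genes lying inside their partner were the largest class by arrangement, followed by 52 pairs whose starts overlapped, 45 whose ends overlapped and 14 in which the antisense gene contained the partner. Where starts overlapped, the antisense start lay a median of 737 bases inside the partner. Of the 175, 136 had exon bases on partner exons, and the median share of antisense exon bases on partner exons was 10.3%. Among others, the exons of Gm11175 (partner Jund), Gm17122 (Coro1c) and Gm26827 (Chsy1) lay wholly on partner exons. Whether reads of shared exons were told apart by strand is not stated for these files. RSEM records a posterior SD above 0 where reads could belong to more than 1 gene, and it was 0 in every library for 89 of the 96 antisense genes that share at least 200 exon bases with their partner. Among antisense genes of any level with at least 50% of exon bases on partner exons and a partner of at least 5000 counts, 6 of 10 and 2 of 9 had 0 counts in monocyte replicates 1 and 2, and 1 of 9 did in each neutrophil library. The lowest values above 0 were 4.4 and 4.91 antisense reads per 100000 partner reads in monocytes and 20.5 and 21.9 in neutrophils.

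Per length, the antisense gene was usually the lower member of its pair. The median antisense level was 8.46% of the partner level in monocytes (158 pairs with a partner above 0) and 12.6% in neutrophils (164 pairs). In all 4 libraries, 28 of 175 antisense genes stood above their partner. Tug1 was at 613% of Morc2a in monocytes and 449% in neutrophils. Gm15987, opposite the lectin-like receptor gene Clec2g, had 3.97 and 3.03 TPM in monocytes and 3.72 and 3.68 TPM in neutrophils, while Clec2g had 27 and 0 counts in monocytes and 0 and 5 in neutrophils, too few for a firm ratio. Il1bos stood far under its partner, at 0.445% of Il1b in monocytes and 0.274% in neutrophils.

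**Figure D1:**
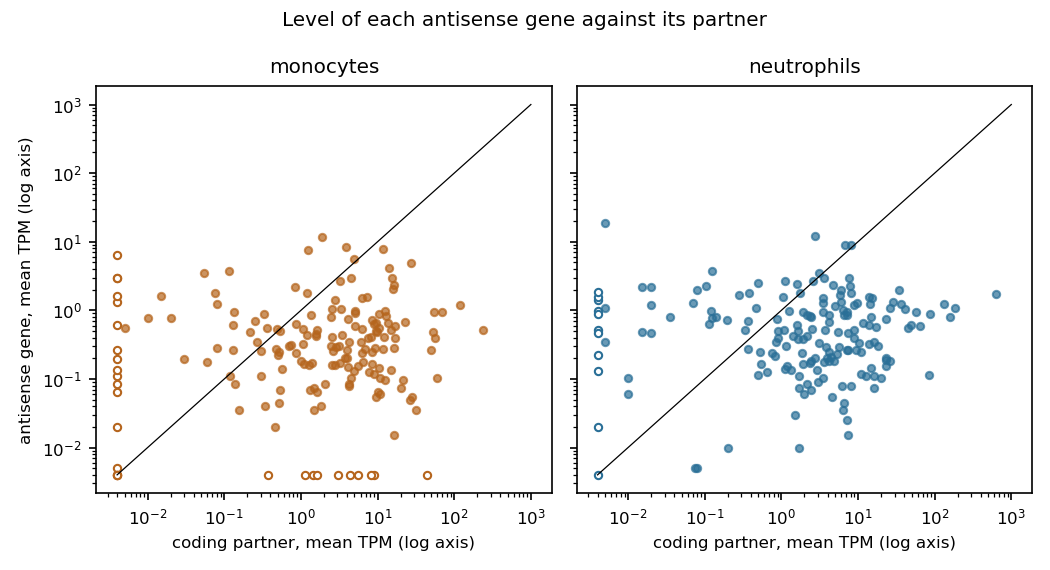
Mean level of each antisense gene (vertical, TPM, log axis) against that of its coding partner (horizontal, TPM, log axis) in monocytes (left) and neutrophils (right), 1 point per pair. Points under the diagonal have the partner higher, and open points at an edge have a gene listed at 0. Most points lie under the diagonal, where the median antisense level was 8.46% of the partner in monocytes and 12.6% in neutrophils.

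Tested with edgeR's quasi-likelihood test over 14309 genes, 13 of the 193 antisense genes were called on the monocyte side, 48 on the neutrophil side and 132 on neither (Benjamini-Hochberg adjusted p under 0.05). These are 6.74% and 24.9% of the 193. The same shares over all genes of the fit were 20.8% on the monocyte side and 21.8% on the neutrophil side. Over the 12875 genes of any type that pass the same count rule, the shares were 22.7% for monocytes and 22.3% for neutrophils. The neutrophil share was thus near the background, and the monocyte share lay below it, a difference that was not tested. Neither background was matched for level, and the antisense genes were low. The count rule favours a difference between the cell types in genes that passed it in 1 of them only, and 33 of the 61 called genes were of that kind. Of the 93 genes that passed in both cell types, 3 (3.23%) were higher in monocytes and 25 (26.9%) in neutrophils. No background of genes of any type that passed in both is given. The median fold change was -0.68 over the 193 and -0.06 over all genes tested. It was -0.48 over the 93 that passed in both cell types and -0.04 over genes of any type that pass the count rule. More of the 193 were admitted through neutrophils only than through monocytes only. The counts depended on the libraries: without a monocyte library 21 or 22 were higher in monocytes and 74 or 82 in neutrophils, and without a neutrophil library 5 or 8 were higher in monocytes and 20 or 22 in neutrophils. A fit with 1 library in a group takes its spread from the other pair.

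The monocyte-high antisense genes with the largest fold changes were near 0 in neutrophils, which a ranking by fold change favours. Gm16120, inside the spindle checkpoint gene Mad1l1 with no shared exon bases, had 459 and 444 counts in monocytes, against 6 and 5 in neutrophils. It rose in monocytes by 6.04 ± 0.35 (edgeR adjusted p = 0.000161), and the call held without each library in turn. Mad1l1 had 1192 and 1017 counts in monocytes and 716 and 609 in neutrophils and missed the threshold at 0.45 ± 0.14 (edgeR adjusted p = 0.0508). The antisense gene thus stood far above its partner's own difference, and the ratio of the pair changed by 5.23 ± 0.45 (limma adjusted p = 0.00457).
Plxna4os1, inside the semaphorin receptor gene Plxna4, had 169 and 159 counts in monocytes and 1 and 0 in neutrophils, a ratio of 268 (95% counting interval 47.8 to 10616). Plxna4 ran the other way in counts, with 0 and 26 in monocytes and 87 and 111 in neutrophils, but was not called (edgeR adjusted p = 0.138). Gm20692, inside Hdhd5, had 164 and 158 counts in monocytes and 1 and 0 in neutrophils, a ratio of 263 (95% counting interval 46.9 to 10422). These antisense genes and Gm16120 share no exon bases with their partners, and each was called without each library. Hdhd5 rose in monocytes by 0.91 ± 0.19, and the ratio of that pair changed by 4.99 ± 0.75 (limma adjusted p = 0.0143).

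Other monocyte-high genes follow. Gm15756, inside the folate enzyme gene Aldh1l1, had 34 and 81 counts in monocytes and 0 and 0 in neutrophils, at least 31.3-fold higher in monocytes where the neutrophil pair together is set to 3 counts, the limit that a count of 0 allows. Of its exon bases 74.5% lie on exons of Aldh1l1, which had 0 and 10 counts in monocytes and 0 and 0 in neutrophils. Gm20658, inside the neuropeptide receptor gene Vipr2, had 70 and 24 counts in monocytes and 4 and 1 in neutrophils, while Vipr2 was at 0 in all 4 libraries. The call of Gm20658 ended without monocyte replicate 1, at 2.93, and without either neutrophil library, at 5.05 and 3.24. It also ended with limma on log2(TPM + 1), at 0.30, and log2(TPM + 0.1), at 1.47, scales that understate the change of low genes. 4930455G09Rik, which has no coding partner, had 98 and 92 counts in monocytes and 12 and 4 in neutrophils, a fold change of 3.28 ± 0.79. Its value was 4.18 and 2.70 without neutrophil replicates 1 and 2, both not called, and that of Gm15756 was 8.75 and 8.77, fitted against 0 counts and likewise not called. Gt(ROSA)26Sor, the locus widely used to carry transgenes in mice, had 544 and 624 counts in monocytes and 211 and 194 in neutrophils. It was outside the naming rule and chosen after its values were seen. Its fold change of 1.24 ± 0.19 (edgeR adjusted p = 0.00496) was called without each library too.

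**Figure D2:**
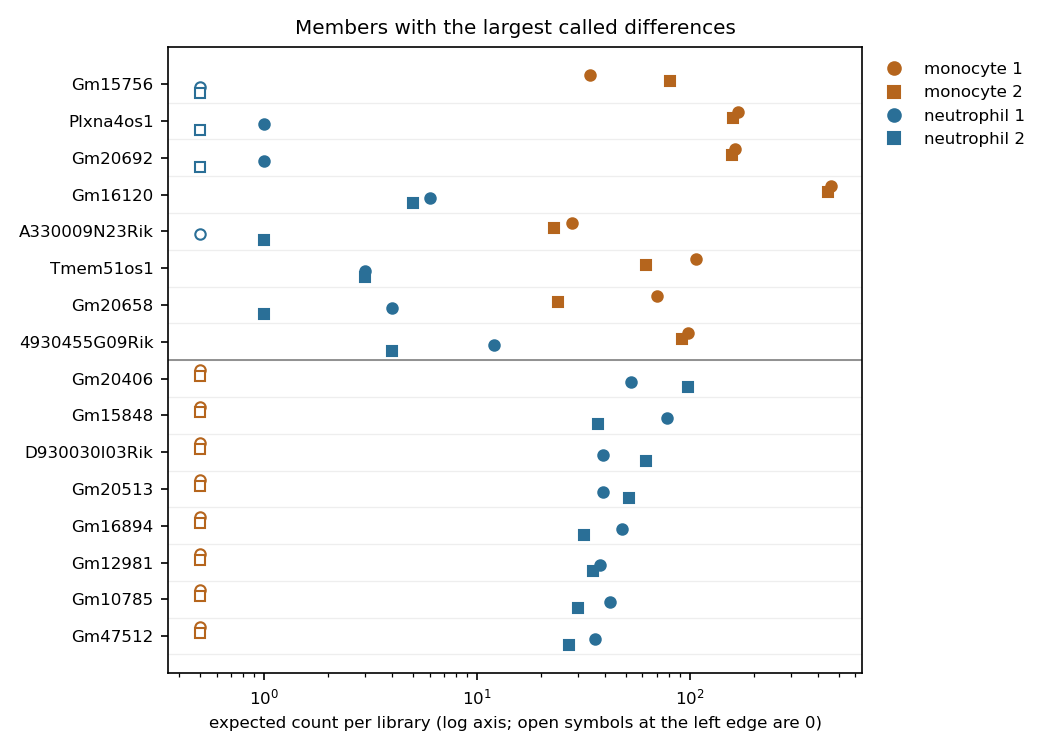
Expected counts per library (log axis) of the 8 antisense genes per direction with the largest called fold change and no overlap between groups, monocyte-high genes above the line and neutrophil-high genes under it. Circles and squares are replicates 1 and 2, and open symbols at the left edge are 0 counts. All 8 neutrophil-high genes were at 0 in both monocyte libraries, which the choice by fold change favours, and at 27 to 98 counts in neutrophils.

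The neutrophil-high antisense genes with the largest fold changes were at 0 in monocytes. A ranking by fold change favours genes fitted against 0 counts, and such genes could pass the count rule only in neutrophils. In all, 14 of the 48 had 0 counts in both monocyte libraries, and their lower bounds ran between 17.1-fold and 61.6-fold. Gm20406, inside Klhdc4, had 0 and 0 counts in monocytes and 53 and 98 in neutrophils, at least 61.6-fold higher in neutrophils. Of its exon bases 22% are shared with Klhdc4, which had 748 and 574 counts in monocytes and 439 and 474 in neutrophils. The fold change of Klhdc4 was 0.24 ± 0.19 and was not called. Gm15848, whose 3′ end overlaps that of the immunoglobulin receptor gene Fcamr, had 0 and 0 counts in monocytes and 78 and 37 in neutrophils, at least 46.9-fold higher. Fcamr was at 0 in all 4 libraries.
D930030I03Rik starts opposite Adprh, an enzyme that removes ADP-ribose from arginine. It had 0 and 0 counts in monocytes and 39 and 62 in neutrophils, at least 41.2-fold higher, while Adprh had 537 and 448 counts in monocytes and 544 and 624 in neutrophils. Gm20513 starts inside H2-Eb1, a class II antigen presentation gene also known from B cells. It had 0 and 0 counts in monocytes and 39 and 52 in neutrophils, at least 37.1-fold higher. H2-Eb1 had 5378 and 4994 counts in monocytes and 12694 and 13858 in neutrophils (-1.65 ± 0.1), beside 8 B cell markers that were all higher in neutrophils, and the part of B cells was not tested.
Gm16894 lies inside Il1r2, the decoy receptor that traps interleukin 1. It had 0 and 0 counts in monocytes and 48 and 32 in neutrophils, at least 32.6-fold higher, and Il1r2 moved the same way, with 129 and 108 counts in monocytes and 1883 and 1925 in neutrophils (-4.3 ± 0.15). Gm12981, with no coding partner, Gm10785, end to end with Cryzl1, and Gm47512, opposite the start of Tspyl4, were at least 29.8-fold, 29.4-fold and 25.7-fold higher in neutrophils, with 0 counts in monocytes. Gm10785 shares 24.6% of its exon bases with Cryzl1 and Gm47512 shares 49.8% with Tspyl4.
These calls at low counts were not stable to leaving out a neutrophil library. Without neutrophil replicate 1 the calls of Gm15848, Gm20513, Gm16894, Gm12981, Gm10785 and Gm47512 ended, and without neutrophil replicate 2 those of Gm20406, D930030I03Rik, Gm20513, Gm16894, Gm12981, Gm10785 and Gm47512 did. The fitted values of these genes without the library that ended the call ran between -8.01 and -8.95, and they rest on 0 counts in monocytes.

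Neutrophil-high antisense genes with counts in both cell types numbered 34, at fold changes between -0.43 and -7.43 with a median of -2.12. Kcnq1ot1 (chromosome 7, 143203458 to 143296549, minus strand), the imprinted antisense RNA of the potassium channel gene Kcnq1, had 1444 and 1217 counts in monocytes and 4219 and 3547 in neutrophils. It fell in monocytes by 1.84 on the log2 scale (SE 0.12, edgeR adjusted p = 0.000225) and was called without each library. Kcnq1 was at 0 counts in all 4 libraries. Spread over 93092 exon bases, the level of Kcnq1ot1 was 0.15 and 0.12 TPM in monocytes and 0.52 and 0.43 TPM in neutrophils.

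The partners were tested in the same fit. Of 172 partners 150 could be tested, of which 29 (19.3%) were higher in monocytes and 53 (35.3%) in neutrophils, against 20.8% and 21.8% of all genes. The neutrophil share of the partners was above the background, a difference that was not tested. Partners entered through antisense genes, more of which passed the count rule in neutrophils only than in monocytes only. The background was not matched to the partners for level. Pairs with both genes tested numbered 153. Both genes were higher in monocytes in 4 pairs and higher in neutrophils in 17, the genes were called in opposite directions in 4, only the antisense gene was called in 20, only the partner in 58 and neither in 50. Across the 153 pairs Spearman's rho between the fold changes of the antisense gene and the partner was 0.33. The pairs share the 4 libraries, and the value is a description. It was 0.52 over the 48 pairs with overlapping starts and 0.36 over the 56 with the antisense gene inside. With overlapping ends it was 0.15 over 36 pairs, and with the partner inside it was -0.08 over 13. Where overlapping starts lay within 1000 bases of each other, it was 0.34 over 33 pairs, near the value over all pairs. Of pairs with overlapping starts, 10 were called in the same direction and 0 in opposite directions. Of pairs with overlapping ends, 1 was called in the same direction and 3 in opposite directions. Whether the arrangements differ was not tested. The count rule favours a difference in antisense genes that passed it in 1 cell type only. The same values over other opposite-strand pairs are not given, so they are not shown to be particular to antisense genes.

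**Figure D3:**
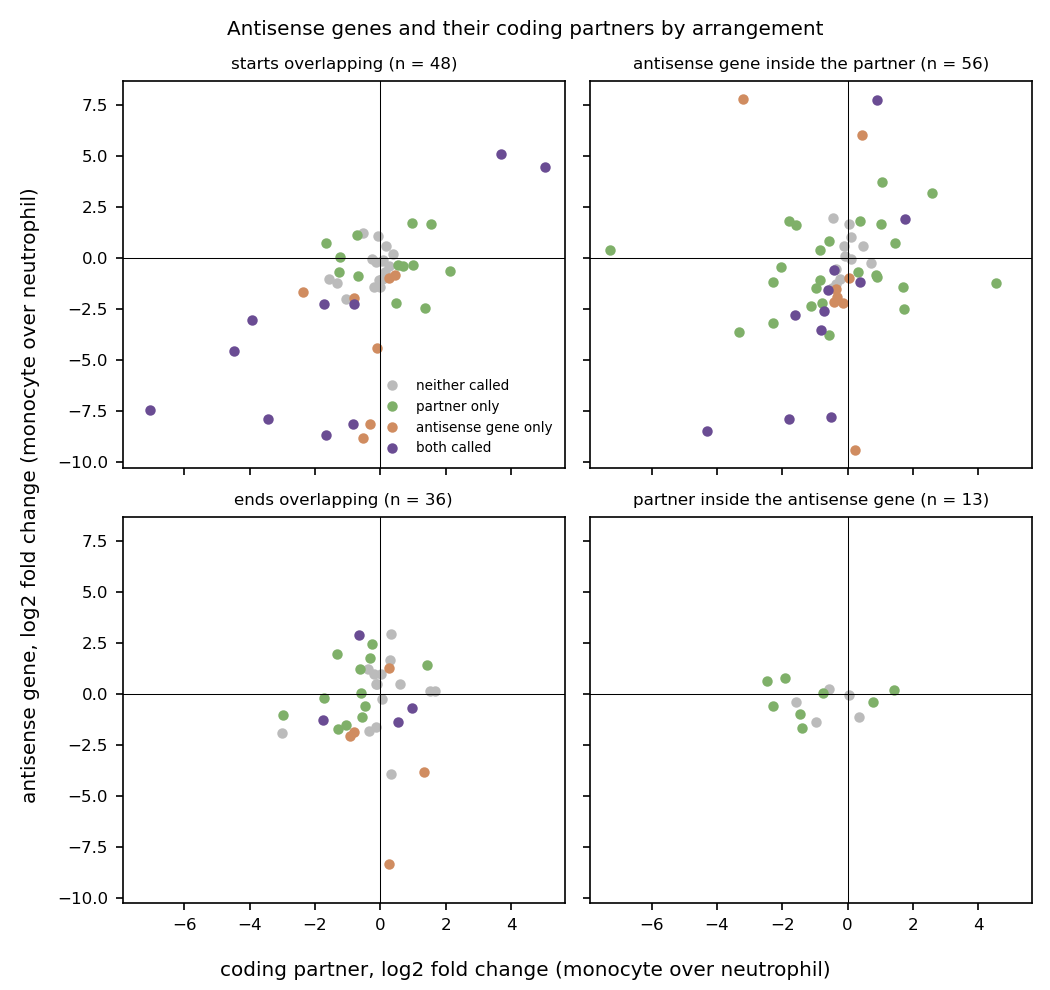
Log2 fold change (monocyte over neutrophil) of each antisense gene (vertical) against its coding partner (horizontal) for the 153 pairs with both genes tested, in 4 panels by arrangement. Colours give which gene of the pair was called, and values near -8 are fitted against 0 monocyte counts. With overlapping starts the 10 pairs with both genes called lie in the lower left and upper right quadrants, and with overlapping ends 3 of the 4 pairs with both genes called lie in the other 2.

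Examples of pairs that moved together follow, chosen after their values were seen except Tmem51os1 and A330009N23Rik. Il1bos (chromosome 2, 129369897 to 129375748, plus strand), whose promoter is shown above, starts 1242 bases inside Il1b, the gene of the inflammatory cytokine interleukin 1 beta. It had 28 and 0 counts in monocytes and 251 and 290 in neutrophils, without overlap, and Il1b had 3178 and 2370 counts in monocytes and 52768 and 47434 in neutrophils. The fold changes were -4.57 ± 1.18 for Il1bos and -4.47 ± 0.15 for Il1b (edgeR adjusted p = 0.0269 and 4.01e-05). They share 25 exon bases, which is 0.839% of the exon bases of Il1bos. Without monocyte replicate 1 the value of Il1bos, then fitted against 0 counts, was -11.19, and without monocyte replicate 2 it was -3.60, both called.
Tmem51os1 starts 332 bases inside Tmem51, a gene of a membrane protein. It had 107 and 62 counts in monocytes and 3 and 3 in neutrophils, and Tmem51 had 1560 and 1145 in monocytes and 33 and 34 in neutrophils. The fold changes were 4.47 ± 0.83 and 5.03 ± 0.24, and that of Tmem51os1 was not called without neutrophil replicates 1 or 2, at 4.41 and 4.49, nor with limma on log2(TPM + 1), at 0.33. A330009N23Rik starts opposite Grasp, a scaffold gene, and had 28 and 23 counts in monocytes and 0 and 1 in neutrophils, a ratio of 41.7 (95% counting interval 7.15 to 1678). Grasp had 197 and 229 counts in monocytes and 13 and 14 in neutrophils, and A330009N23Rik was not called without neutrophil replicates 1 or 2, at 4.18 and 7.59, nor with no filter on low counts, at 5.06.
Zeb2os, inside Zeb2, a transcription factor gene of monocyte development, had 728 and 451 counts in monocytes and 136 and 120 in neutrophils. Zeb2 had 16336 and 18023 counts in monocytes and 4283 and 4024 in neutrophils, and the fold changes were 1.91 ± 0.29 and 1.76 ± 0.09. Of the exon bases of Zeb2os, 32.8% lie on exons of Zeb2, and the call held without each library. Gm15674 starts 185 bases inside Cd55b and had 0 and 2 counts in monocytes and 148 and 172 in neutrophils, a ratio of 196 (95% counting interval 53.8 to 1624), the higher side being neutrophils. Gm16083 starts 168 bases inside the neighbouring copy Cd55, which restrains complement, and had 0 and 0 counts in monocytes and 20 and 33 in neutrophils. Cd55 had 1895 and 1894 counts in monocytes and 18276.2 and 15170.3 in neutrophils. Cd55 and Cd55b are near copies whose reads RSEM divided, so their split is uncertain. Cd55b had 0 and 0 counts in monocytes and 17.83 and 11.66 in neutrophils. Its posterior SD reached 267% of its posterior mean count, so its shared direction with Gm15674 is uncertain too. C330011M18Rik, opposite the start of the transcription factor gene Rfx1, had 142 and 63 counts in monocytes and 423 and 371 in neutrophils, a fold change of -2.25 beside -1.74 ± 0.28 for Rfx1. Gm16083 was not called without neutrophil replicates 1 or 2, at -8.29 and -7.52.

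The ratio test compares the change of an antisense gene with that of its partner directly, over 1805 opposite-strand pairs. Of 153 antisense pairs, the ratio was higher in monocytes in 9 (5.88%) and higher in neutrophils in 22 (14.4%). Over 619 pairs of any noncoding gene and an opposite-strand coding gene, the shares were 5.65% for monocytes and 9.69% for neutrophils, and they include the antisense pairs. Without a neutrophil library the test called 0 pairs of any kind, antisense or not, and 24 or 26 of the 153 had an unadjusted p under 0.05, against 64 with all libraries.

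All 4 pairs called in opposite directions also had a called ratio. The ratio is the difference between the changes of both genes in the same libraries, so its call is not separate evidence. Rab10os overlaps the 3′ end of Rab10, a small GTPase of membrane traffic, and had 451 and 451 counts in monocytes and 573 and 604 in neutrophils. Rab10 had 5763 and 6491 counts in monocytes and 2637 and 2521 in neutrophils, so the fold changes were -0.68 ± 0.15 for Rab10os and 0.96 ± 0.1 for Rab10. The ratio changed by -1.63 ± 0.18 (limma adjusted p = 0.00712), with 2.33% of Rab10os exon bases shared. Gm28192, inside the kinase gene Csnk1d with 8.1% of its exon bases shared, had 354 and 223 counts in monocytes and 555 and 505 in neutrophils, and Csnk1d had 2245 and 2380 in monocytes and 1467 and 1452 in neutrophils. Their fold changes were -1.17 ± 0.25 and 0.37 ± 0.1, and the antisense call held without each library.
4930599N23Rik overlaps the end of Kdm7a, a histone demethylase gene, with 32.6% of its exon bases shared, and was the 1 gene of these that was higher in monocytes. It had 64 and 83 counts in monocytes and 8 and 8 in neutrophils, while Kdm7a had 11250 and 10621 in monocytes and 14831 and 13412 in neutrophils. The fold changes were 2.89 ± 0.74 and -0.66 ± 0.07, and the ratio changed by 3.31 ± 0.29 (limma adjusted p = 0.00458). 4930481A15Rik overlaps the end of Drap1, a transcriptional corepressor gene, and had 68 and 70 counts in monocytes and 156 and 140 in neutrophils, while Drap1 had 819 and 888 in monocytes and 461 and 495 in neutrophils. Without neutrophil replicates 1 and 2 the calls of Rab10os (-0.77 and -0.62), 4930599N23Rik (2.83 and 2.91) and 4930481A15Rik (-1.37 and -1.45) ended. On log2(TPM + 1) and log2(TPM + 0.1) with limma, Rab10os was at -0.10 and -0.14 and 4930481A15Rik at -0.67 and -1.30, all not called, and Gm28192 was not called on the second of these scales, at -1.14.

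**Figure D4:**
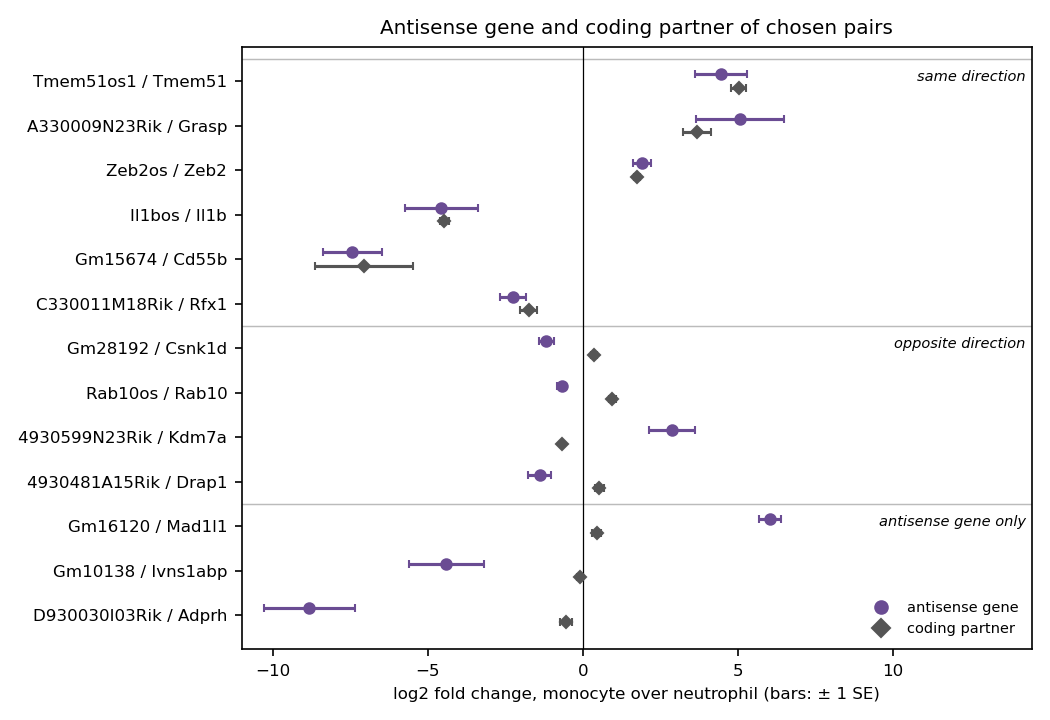
Log2 fold change, monocyte over neutrophil, of the antisense gene (circles) and the coding partner (diamonds) in 13 pairs, with bars of ± 1 SE. The upper 6 pairs were called in the same direction, the next 4 in opposite directions, and in the lower 3 only the antisense gene was called. Values of D930030I03Rik and Cd55b are fitted against 0 monocyte counts, and Gm10138 stood at -4.40 beside -0.1 for Ivns1abp. The split of reads between Cd55b and Cd55 is uncertain.

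Other ratio changes came from 1 side of the pair. Gm10138 starts opposite Ivns1abp and had 28 and 0 counts in monocytes and 236 and 246 in neutrophils, while Ivns1abp had 9445 and 9517 in monocytes and 8877 and 7724 in neutrophils. The antisense gene was called (-4.40 ± 1.21, edgeR adjusted p = 0.0323), the partner was not, and the ratio changed by -5.1 ± 1.23 (limma adjusted p = 0.0441). Without monocyte replicate 1 the value of Gm10138 was -11.02, fitted against 0 counts, and without monocyte replicate 2 it was -3.43, both called. With DESeq2 it was -4.42 and was not called.
Gm13919, inside the receptor gene Ldlrad3, had 0 and 36 counts in monocytes and 50 and 21 in neutrophils, so its groups overlapped. Ldlrad3 had 4134 and 4887 counts in monocytes and 172 and 146 in neutrophils (4.54 ± 0.15), and the ratio changed by -6.71 ± 1.39 (limma adjusted p = 0.0309). Gm13919 itself was called only without monocyte replicate 2, at -8.26, then fitted against 0 counts. Gm16192, inside Mtus1 with 42.0% of its exon bases shared, had 35 and 43 counts in monocytes and 12 and 6 in neutrophils and was not called, while Mtus1 had 1122 and 1132 counts in monocytes and 3173 and 3167 in neutrophils (-1.79 ± 0.1). That ratio changed by 3.48 ± 0.55 (limma adjusted p = 0.0162).

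In 58 pairs only the partner was called, and examples with few antisense counts follow. Gm7008, inside the regulator gene Ifrd1, had 49 and 22 counts in monocytes and 0 and 6 in neutrophils (3.19 ± 1.56, not called), beside 2.59 for Ifrd1. Gm16214, inside the sorting receptor gene Sorl1, had 0 and 19 counts in monocytes and 65 and 77 in neutrophils (-3.17 ± 1.51, not called), beside -2.29 for Sorl1. Gm37469, inside Cd247, the zeta chain of T cell and natural killer receptors, had 72 and 95 counts in monocytes and 0 and 10 in neutrophils (3.71 ± 1.43, edgeR adjusted p = 0.0891), beside 1.05 for Cd247. All 10 natural killer markers were higher in monocytes, and their part in this pair was not tested. A different pattern was held by Slc36a3os, with 71 and 35 counts in monocytes and 44 and 23 in neutrophils (0.37 ± 0.74, not called), inside the transporter gene Slc36a3, which had 0 and 0 counts in monocytes and 11 and 23 in neutrophils. The ratio of that pair changed by 3.65 and was not called (limma adjusted p = 0.0701). These pairs were chosen after their values were seen.

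Genes that degrade antisense RNA or act on double-stranded RNA, which sense and antisense transcripts can form, were counted in 2 lists. Of 28 surveillance genes tested, 7 were called on the monocyte side, 5 on the neutrophil side and 16 on neither, shares near the 20.8% and 21.8% of all genes, and the median fold change was 0.03. The monocyte side held the exosome cofactor C1d (1.78 ± 0.2), the core subunits Exosc3 (1.14 ± 0.25) and Exosc9 (0.98 ± 0.15), Rbm7, which targets the nuclear exosome to RNA (0.99 ± 0.11), and the nuclear exonuclease Xrn2 (0.73 ± 0.07). The neutrophil side held Upf2 (-1.15 ± 0.12) and Smg6 (-0.54 ± 0.11) of nonsense-mediated decay and Zfc3h1 (-0.84 ± 0.1), which links polyadenylated RNA to the exosome. It also held Exosc10, a nuclease of the exosome (-0.61 ± 0.13). Dis3 (-0.39 ± 0.40) and Dis3l (0.43 ± 0.17) of the same list were not called. Of 22 genes of double-stranded RNA, 3 were called on the monocyte side, 9 on the neutrophil side and 10 on neither, read beside the same 20.8% and 21.8%, and the median was -0.44. Whether either list differs from other genes was not tested. The members of these lists were chosen by function, with earlier results of these data known. The fold changes of both lists are read beside the median of -0.06 over all genes. The neutrophil side held the editing enzyme Adar (-1.25 ± 0.16), the sensor Ddx58 (-1.4 ± 0.11), Dicer1 (-0.42 ± 0.09) and all 4 Argonaute genes, of which Ago2, the slicing one, was at -1.0 ± 0.1. The monocyte side held the sensors Ifih1 (0.75 ± 0.19) and Zbp1 (1.02 ± 0.14) and the helicase Dhx9 (0.52 ± 0.1).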

How the data were processed

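Total RNA was depleted of ribosomal RNA and made into stranded ScriptSeq libraries amplified by PCR without molecular identifiers, so counting intervals cover counting error only. Reads were aligned by the authors to mm10 with STAR and quantified with RSEM on GENCODE M4 genes. The deposited expected counts, the posterior mean counts (also expected counts) with their posterior SD, and TPM were used, and no other series' columns. Expected counts were rounded. Whether the authors' counting used strand was not given in the sources used here. Types, symbols and coordinates came from GENCODE M21, matched by identifier for 42462 of 43346 genes. RefSeq sequences were matched by symbol.

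With edgeR 4.0.16 (R 4.3.3), genes were kept by filterByExpr, scaled by TMM and tested by the quasi-likelihood F test, with Benjamini-Hochberg adjustment over 14309 genes. SE was the fold change over the root of F. Groups at 0 were set to a floor of 3 counts. Ratios of pairs (log2 CPM, prior count 2) were fitted with limma 3.58.1. Alternatives used DESeq2 1.42.0, limma on log2(TPM + 1) and log2(TPM + 0.1), other scalings, filters and count rules, and each library left out. Named antisense genes were, per direction, the 8 called with the largest fold change and no overlap, the 5 of highest TPM per cell type, those called opposite to their partner, the 4 called ratios of largest change per direction, known long noncoding RNAs and those with a partner in a listed set. The members and lists were chosen with earlier results of these data known. Figures and tables were made with Python 3.11.15, pandas 2.3.3 and scipy 1.17.1.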

Additional observations from a re-analysis of the deposited data

How the results depend on the processing

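Over 10 CPM in 2 libraries, 5 antisense genes were called on the monocyte side and 20 on the neutrophil side, where fewer genes are tested. Requiring 20 counts in all 4 libraries gave 3 and 25. Leaving out a library gave 5 to 22 on the monocyte side and 20 to 82 on the neutrophil side, with 20 to 36 and 38 to 68 of the partners. Of the 61 called antisense genes, 60 and 61 kept call and direction without monocyte replicates 1 and 2, and 24 and 27 without neutrophil replicates 1 and 2. No called gene changed sign under any alternative that tested it. The ratio was higher in monocytes in 14 pairs on log2 of TPM + 0.1. Among the 31 pairs without exon overlap, the ratio was higher in monocytes in 5 and higher in neutrophils in 5 others. Without a library it was higher in monocytes in 0 to 30 pairs and in neutrophils in 0 to 46. Other scalings, prior counts, DESeq2, limma on TPM and posterior mean counts kept each of these counts within 1.5 times. No paired analysis was possible because the labels give monocyte and neutrophil libraries no shared replicate numbers, and the numbers used here only follow the order of deposit. With 2 libraries per cell type and a median antisense level under 1 TPM, a gene that was not called is not shown to be equal.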
